A study of Mus musculus with 6 samples.

Results

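The vesicular glutamate transporters are 3 genes of the SLC17 family, Slc17a6 (VGLUT2), Slc17a7 (VGLUT1) and Slc17a8 (VGLUT3). They were taken by symbol from the deposited table of expression levels, where they are 3 of 23029 genes. Each protein loads glutamate into synaptic vesicles, driven by the proton gradient that a vesicular ATPase builds up, so a neuron that carries one of them can release glutamate. In sensory ganglia Slc17a6 is known from most neurons, Slc17a7 mainly from large myelinated neurons, and Slc17a8 from C-fibre low-threshold mechanoreceptors, for which it serves as a marker.

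RNA was profiled in cells sorted by flow cytometry from mouse dorsal root ganglia, where the somata of primary sensory neurons lie. C-LTMR cells, named for the C-fibre mechanoreceptors of light touch, were IB4-GINIP+, DP cells were IB4+GINIP+ and are labelled as Mrgprd-expressing neurons, and DN cells were IB4-GINIP- and hold what remained. IB4 is a plant lectin that binds many non-peptidergic nociceptors, and GINIP is a G protein partner found in a subset of sensory neurons. All 3 subsets came from animals of genotype GINIP+/mcherry, heterozygous for a reporter at the GINIP locus, so the comparisons are between gates and not between genotypes. Age is not given in the labels used here. Each subset had 2 libraries (n = 2 for every mean ± SD), and nothing in the labels tells whether different animals were behind them. The p-values therefore reflect the spread of these libraries alone, which may be technical.

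Levels are RPKM as deposited by the authors, the reads of a gene divided by its length and by the reads of the library. Genes of different length can thus be set side by side, though the annotation behind the lengths is not given. The RNA was also amplified, and the effect of amplification on ratios between genes was not tested. Depth was estimated at 32.3 to 42.1 M reads per library from the steps between low values. Libraries of a subset correlated across tested genes with r = 0.9875 to 0.9964 on the log2 scale, against 0.8211 to 0.9517 between subsets. Markers followed the sort labels. Th, which encodes tyrosine hydroxylase and marks C-LTMRs, averaged 1027 ± 15.1 RPKM in C-LTMR cells, against 55.3 ± 9.14 RPKM in DP cells and 23.0 ± 12.4 RPKM in DN cells. Mrgprd was at 1.32 and 2.01 RPKM in C-LTMR, 220 and 277 RPKM in DP, and 0.345 and 0.953 RPKM in DN. DN also held markers of non-neuronal cells: 10 markers of satellite glia and Schwann cells summed to 8706 and 18340 RPKM in DN, against 2334 and 3244 RPKM in C-LTMR and 1238 and 1721 RPKM in DP. Endothelial markers summed to 309 and 542 RPKM in DN, against at most 0.622 RPKM in C-LTMR and 4.22 RPKM in DP. The sum of 7 immune markers was highest in DP, at 4.57 and 8.82 RPKM in C-LTMR, 143 and 154 RPKM in DP, and 49.2 and 88.1 RPKM in DN. S100a9 and Lyz2, genes of myeloid cells, were the main part in DP. C1qa, Csf1r and Ptprc, also highest in DP on average, were at most 0.771 RPKM. Cd14 and Cd68 were instead highest in DN, Cd14 at 20.1 and 41.7 RPKM against 6.17 and 7.82 RPKM in DP. The part of immune cells in the comparisons was not tested. In sorted bulk samples, fewer cells of a type and less RNA per cell cannot be told apart.

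Slc17a8 (Entrez 216227) lies on the minus strand of chromosome 10, 89574020 to 89621249 in GRCm38, and overlaps no other annotated gene. Slc17a6 (Entrez 140919) lies on the plus strand of chromosome 7, 51621830 to 51671126, with Gm45072 on the same strand within it but outside its exons. Slc17a7 (Entrez 72961) lies on the plus strand of the same chromosome, 45163921 to 45176139, with the microRNA gene Mir7055 on the same strand within it and outside its exons. The principal transcript of each has 12 exons, and the exon lengths are 4.72 kb for Slc17a8, 4.14 kb for Slc17a6 and 2.99 kb for Slc17a7 (GENCODE annotation of the same build). The upstream sequences of Slc17a8, the member that differed most between subsets, and of Slc17a6, the most abundant in every library, are given for the 250 bases before the annotated start (RefSeq, GRCm38.p6), 5′ to 3′ on the gene's strand, with CpG dinucleotides in capitals.
Slc17a8, chr10:89621250-89621499, minus strand: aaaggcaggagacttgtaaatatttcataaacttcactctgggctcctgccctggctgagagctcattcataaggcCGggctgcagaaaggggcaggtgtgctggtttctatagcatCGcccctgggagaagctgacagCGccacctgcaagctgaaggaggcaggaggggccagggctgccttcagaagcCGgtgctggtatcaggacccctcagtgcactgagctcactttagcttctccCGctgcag
Slc17a6, chr7:51621580-51621829, plus strand: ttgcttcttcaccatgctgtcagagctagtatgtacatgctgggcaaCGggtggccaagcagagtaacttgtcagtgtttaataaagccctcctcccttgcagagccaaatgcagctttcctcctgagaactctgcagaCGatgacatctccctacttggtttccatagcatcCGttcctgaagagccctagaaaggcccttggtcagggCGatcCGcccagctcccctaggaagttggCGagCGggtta

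These windows held 5 CpG dinucleotides upstream of Slc17a8 and 7 upstream of Slc17a6, and the window of Slc17a7 held 9, against a median of 6 over 32851 promoter windows of the same length. On both strands, the letters TATAAA, a core promoter element, were in none of these 3 windows and in 12.4% of all windows. The letters TGTGGT (a core that RUNX factors bind, Runx1 being a regulator known in these neurons) were in none of the 3 and in 14.0% of all windows. These counts describe the letters of the windows and were not related to the levels.

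Slc17a6 was the most abundant of the 3 transporters in all 6 libraries, and Slc17a8 came to at least 17.1% of the summed level in C-LTMR libraries and at most 2.14% elsewhere. Slc17a6 was at 81.8 and 79.7 RPKM in C-LTMR, 61.5 and 59.3 RPKM in DP, and 58.0 and 62.4 RPKM in DN. Both C-LTMR libraries lay above the other 4, while DP and DN overlapped. Slc17a8 was at 17.1 and 19.1 RPKM in C-LTMR, 1.12 and 1.31 RPKM in DP, and 0.529 and 0.216 RPKM in DN. Its 3 subsets did not overlap, in the order C-LTMR, DP, DN. How many of all genes separate in this way was not counted, here or for Slc17a6. Slc17a7 was at 0.606 and 0.137 RPKM in C-LTMR, 0.145 and 0.302 RPKM in DP, and 0.166 and 0.221 RPKM in DN. Its subsets all overlapped, and the highest and the lowest of the 6 libraries were both C-LTMR libraries.

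**Figure D1:**
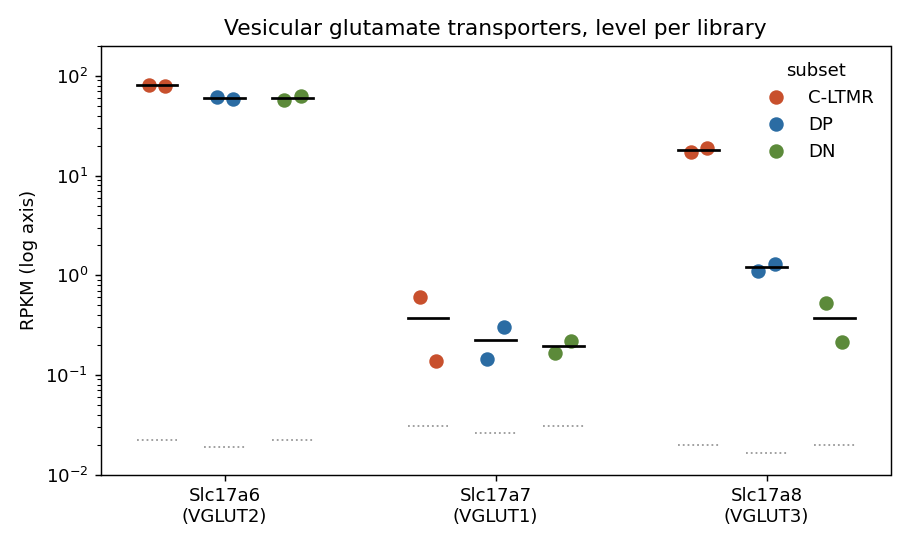
Level of each transporter gene in RPKM (log axis), by subset; each point is a library, the black line is the mean of the 2 libraries, and the dotted grey line is the level that 3 reads would give in the shallower library of the subset. Slc17a6 lies between 58.0 and 81.8 RPKM throughout, Slc17a8 reaches 17.1 and 19.1 RPKM in C-LTMR, and Slc17a7 stays at or below 0.606 RPKM.

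The members were also ranked among all genes of each library. Slc17a6 exceeded 95.3% and 95.2% of genes in the C-LTMR libraries, 93.9% and 93.6% in DP, and 93.4% and 93.8% in DN. Slc17a8 exceeded 82.6% and 84.0% of genes in C-LTMR, 54.8% and 55.8% in DP, and 43.8% and 38.5% in DN. Slc17a7 exceeded between 37.2% and 49.7% of genes across the 6 libraries, with its lowest ranks in both DN libraries. Its RPKM there (0.166 and 0.221) nonetheless lay above C-LTMR replicate 2 (0.137) and DP replicate 1 (0.145). The median of all genes was 1.21 and 1.27 RPKM in DN, against 0.586 to 0.663 RPKM in the other subsets. At such low levels the same RPKM thus ranks lower in DN, which also holds for Slc17a8. With the estimated depths and exon lengths, the Slc17a7 values correspond to about 62.0 and 13.2 reads in C-LTMR, 18.2 and 34.6 in DP, and 19.3 and 21.4 in DN. They lie above the level that 3 reads would give (0.0239 to 0.0311 RPKM), a floor set by counting alone that leaves out the error of RNA amplification. The Slc17a8 values in DN correspond to about 97.4 and 32.9 reads.

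As a share of the summed RPKM of the 3 genes, Slc17a6 made up 82.3% and 80.5% in C-LTMR, 98.0% and 97.4% in DP, and 98.8% and 99.3% in DN. Slc17a8 made up 17.1% and 19.3% in C-LTMR, 1.78% and 2.14% in DP, and 0.902% and 0.343% in DN. Slc17a7 stayed between 0.138% and 0.609% in all libraries. Slc17a6 was thus the dominant transporter in each subset, by 4.80-fold and 4.17-fold over Slc17a8 in C-LTMR, 55.1-fold and 45.4-fold in DP, and 109.6-fold and 289-fold in DN. Slc17a8 was the second of the 3 in both C-LTMR and both DP libraries, and in DN the order of Slc17a8 and Slc17a7 differed between the libraries (Slc17a8 was 3.19 times Slc17a7 in one DN library and just below it in the other). The summed level was 99.2 ± 0.370 RPKM in C-LTMR, 61.8 ± 1.28 RPKM in DP and 60.8 ± 2.93 RPKM in DN. Shares were not tested, because with 2 libraries against 2 an exact two-sided permutation test cannot go below p = 0.333.

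**Figure D2:**
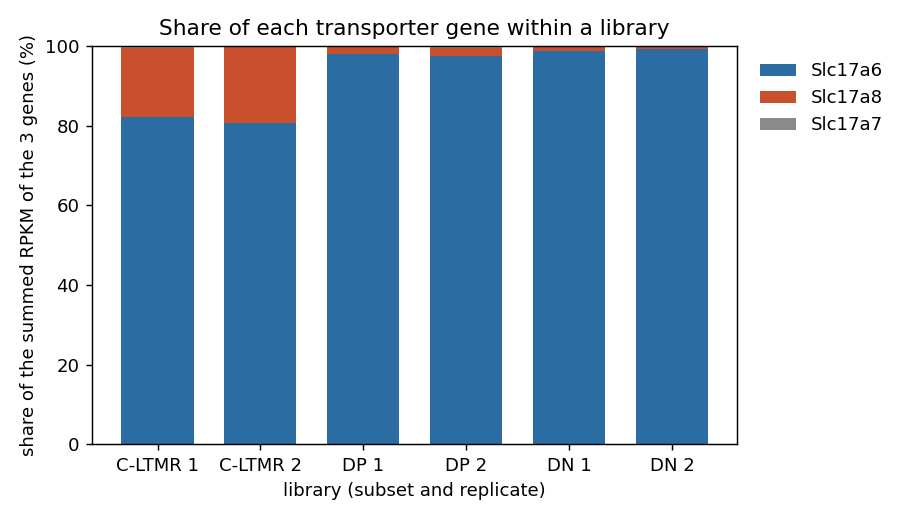
Share of each gene in the summed RPKM of the 3 transporter genes (percent), one bar per library. Slc17a8 takes 17.1% and 19.3% in the C-LTMR libraries and at most 2.14% in the other 4; Slc17a7 is a barely visible band at the top of the bars.

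The 3 comparisons between subsets were fitted together for 13478 genes with limma on log2(RPKM + 0.5), and calls required both a limma p below 0.05 after Benjamini-Hochberg adjustment and a log2 fold change of 1 or more in size. Fold changes on this scale understate the change of low genes. Genes had to reach 0.5 RPKM in at least 2 libraries, which Slc17a6 and Slc17a8 did and Slc17a7 did not. Slc17a8 reached this level in 5 libraries, all but DN replicate 2.

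C-LTMR against DP sets apart the GINIP+ subsets that IB4 staining divides. Slc17a8 was called higher in C-LTMR, at 18.1 ± 1.47 RPKM against 1.21 ± 0.135 RPKM in DP (log2 fold change 3.44, SE 0.191, limma adjusted p = 5.62e-05). It was 1 of 2 members tested, where 6.77% of all genes tested were called higher and 4.56% lower (11.3% in either direction), and its fold change was the 26th highest of the 13478. On RPKM itself, without the pseudocount, the ratio of means was 14.9, and single libraries of the subsets differed by 13.1 to 17.1 times. Slc17a6 averaged 80.8 ± 1.5 RPKM in C-LTMR and 60.4 ± 1.53 RPKM in DP. Its log2 fold change of 0.42 (SE 0.0816, 95% interval 0.22 to 0.61, limma adjusted p = 0.00953) passed the p threshold, as did 29.8% of genes in either direction and 17.3% with higher levels in C-LTMR, but not the fold criterion, so it was not called. This smaller difference varied with scaling: with libraries rescaled to pan-sensory-neuron genes it was 0.18 (limma adjusted p = 0.519). With quantile normalization, median-ratio scaling and the authors' TMM-normalized table it was 0.40, 0.34 and 0.37 (limma adjusted p = 0.0128, 0.0244 and 0.0191). Of the 15 pan-sensory-neuron genes tested, 2 were themselves called higher in C-LTMR than in DP. Without 1 library at a time the log2 fold change of Slc17a6 ran from 0.39 to 0.44. Such fits leave 1 library in a subset, so no p-value is given for them and the range describes the size of the difference only.

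C-LTMR against DN sets the same neurons against the cells outside both gates. Slc17a8 was called higher in C-LTMR, at 18.1 ± 1.47 RPKM against 0.373 ± 0.222 RPKM in DN (log2 fold change 4.43, SE 0.191, limma adjusted p = 7.46e-06). Of all genes tested, 7.26% were called higher in C-LTMR and 19.8% lower (27.1% in either direction), and Slc17a8 ranked 45th. The ratio of mean RPKM was 48.6, and between single libraries it ran from 32.2 to 88.7, since the DN libraries differed 2.45-fold. Slc17a6 averaged 80.8 ± 1.5 RPKM in C-LTMR and 60.2 ± 3.11 RPKM in DN (log2 fold change 0.42, SE 0.0816, 95% interval 0.23 to 0.62, limma adjusted p = 0.00416). It passed the p threshold with 59.8% of genes in either direction and 24.6% with higher levels in C-LTMR. It missed the fold criterion. With quantile normalization, median-ratio scaling and the TMM-normalized table the difference was 0.44, 0.45 and 0.37 (limma adjusted p = 0.0037, 0.00354 and 0.0114). Of the 15 pan-sensory-neuron genes tested, 3 were called higher and 3 lower in C-LTMR than in DN. With libraries rescaled to these genes the difference was 0.22 (limma adjusted p = 0.328). On that scale the level of Slc17a6 was 72.9 and 72.8 RPKM in C-LTMR, 65.8 and 63.0 RPKM in DP, and 52.6 and 74.5 RPKM in DN, so that C-LTMR lay within the range of DN.

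DP against DN was the comparison in which the members differed least. Slc17a8 was at 1.21 ± 0.135 RPKM in DP and 0.373 ± 0.222 RPKM in DN, a ratio of means of 3.25 that ran from 2.11 to 6.06 between single libraries. Its log2 fold change of 0.99 (SE 0.191, 95% interval 0.54 to 1.45, limma adjusted p = 0.00388) passed the p threshold, as did 61.3% of genes in either direction and 21.8% with higher levels in DP, and fell just short of the fold criterion. It was called under several other settings, among them a pseudocount of 0.1 (1.55) and the authors' TMM-normalized table (1.78). Of all genes tested, 6.57% were called higher in DP, 21.4% lower and 28.0% in either direction. Slc17a6 was at 60.4 ± 1.53 RPKM in DP and 60.2 ± 3.11 RPKM in DN (log2 fold change 0.01, SE 0.0816, 95% interval -0.19 to 0.20, limma adjusted p = 0.959).

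Slc17a7 could be tested only in a fit of all 23029 genes without a filter, and there it passed in none of the comparisons. The log2 fold changes were 0.22 for C-LTMR over DP (limma adjusted p = 0.865), 0.28 for C-LTMR over DN (0.634) and 0.05 for DP over DN (adjusted p = 1), each with an SE of 0.318. The C-LTMR libraries differed 4.43-fold from each other and the DP libraries 2.09-fold. Markers of myelinated neurons, among which Slc17a7 is known, differed between replicates in both directions. Pvalb, a calcium-binding protein of proprioceptors, was at 7.81 and 1.06 RPKM in C-LTMR, 2.98 and 6.33 RPKM in DP, and 17.7 and 4.33 RPKM in DN. Spp1, the osteopontin gene, was at 7.36 and 1.07 RPKM in C-LTMR, 1.10 and 2.72 RPKM in DP, and 18.1 and 19.1 RPKM in DN. The replicate with more Slc17a7 thus had more Pvalb in C-LTMR and DP and less in DN. Nefh and Nefm, neurofilament genes, also ran with Slc17a7 in C-LTMR, at 49.7 and 30.7 RPKM and 201 and 149 RPKM in replicates 1 and 2. Ntrk2 and Ntrk3, neurotrophin receptors, and Necab2 ran the other way there, at 4.82 and 7.39 RPKM, 18.2 and 24.7 RPKM, and 31.1 and 39.6 RPKM. Of these, Ntrk3 and Necab2 were called higher in C-LTMR than in DP and in DN. The 8 markers of this list summed to 320 and 254 RPKM in C-LTMR, 346 and 359 RPKM in DP, and 392 and 280 RPKM in DN, with Runx3 at or under 0.159 RPKM in all libraries. The part of such cells in the Slc17a7 level was not tested.

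**Figure D3:**
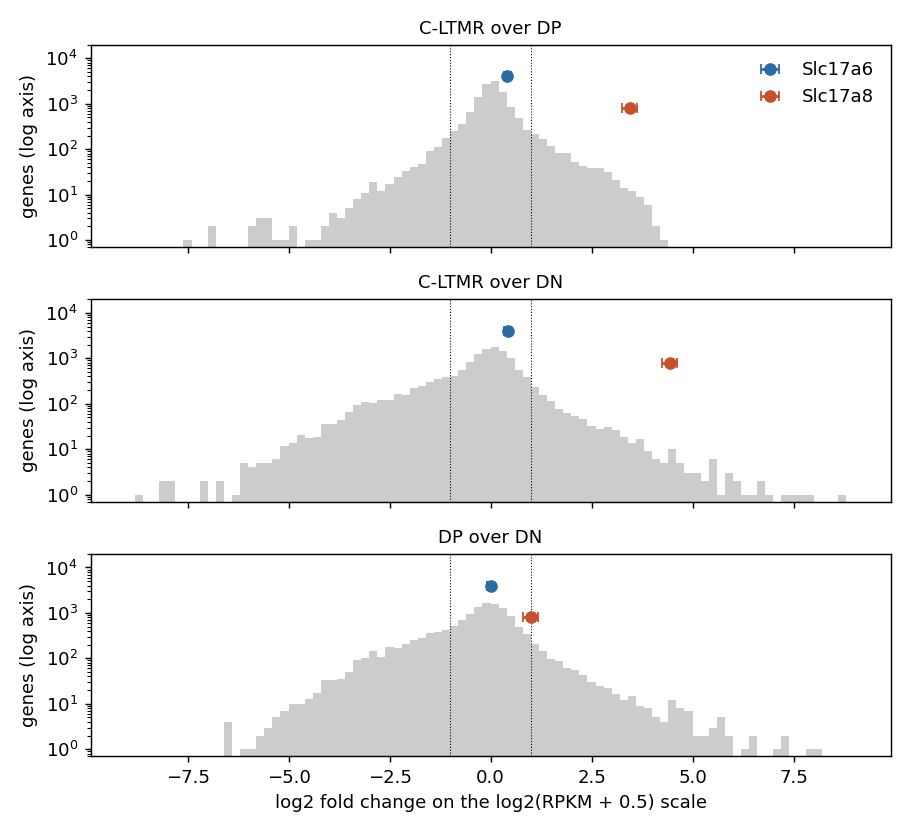
Distribution of log2 fold changes over the 13478 genes tested (grey bars, number of genes on a log axis) in the 3 comparisons, with Slc17a6 and Slc17a8 drawn as points with their SE at arbitrary heights and the fold criterion as dotted lines. Slc17a8 lies at 3.44 and 4.43 in the comparisons of C-LTMR and at 0.99 in DP over DN, and Slc17a6 lies between 0.01 and 0.42.

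The low Slc17a8 levels in DP and DN were set beside other C-LTMR markers, a list that does not hold Slc17a8. Slc17a8 in DP was 6.69% of its C-LTMR mean. The same share was 5.38% for Th, 5.52% for Zfp521 (a zinc finger gene), 5.83% for Cacna1i and 7.24% for Cacna1h (T-type calcium channels), 11.1% for Fam19a4 (a secreted protein), 12.9% for Pou4f2 (a transcription factor) and 15.0% for the potassium channel gene Kcnd3. Gfra2, a co-receptor that DP neurons also carry, stood at 74.3%. Slc17a8 lay within the range of the 8 markers, a wide one from 5.38% to 74.3%, so this position says little by itself. In DN, Slc17a8 was 2.06% of its C-LTMR mean, against 2.23% for Th, 6.48% for Zfp521, 1.14% for Pou4f2, 3.44% for Kcnd3, 3.70% for Gfra2, 0.122% for Cacna1i, 0.160% for Fam19a4 and 21.9% for Cacna1h. The summed level of the 8 markers was 1516 and 1529 RPKM in C-LTMR, 220 and 227 RPKM in DP, and 42.6 and 27.3 RPKM in DN. In DN the library with more Slc17a8 had more of 4 of the 8 markers (Th, at 31.7 and 14.2 RPKM, Pou4f2, Zfp521 and Cacna1h) and less of the other 4, so that the higher sum in that library was carried by Th. Whether C-LTMR cells within the DP and DN gates account for these levels was not tested.

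**Figure D4:**
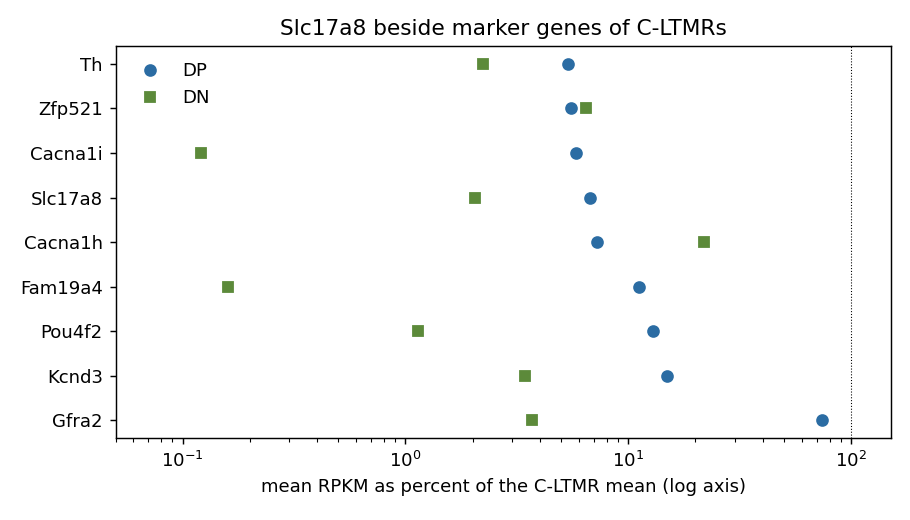
Mean RPKM in DP (circles) and DN (squares) as a percent of the C-LTMR mean (log axis; dotted line at 100%), for Slc17a8 and 8 marker genes of C-LTMRs. Slc17a8 is at 6.69% in DP and 2.06% in DN. The markers range widely, from 5.38% to 74.3% in DP and from 0.122% to 21.9% in DN.

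The genes whose pattern across the 6 libraries was most like that of Slc17a8 were Kcnj12, Ostf1, Wbscr16, Smug1 and Lnx1 (r = 0.9994 to 0.9984). Likeness was Pearson's r on log2(RPKM + 0.5), among 12566 genes with a mean of at least 1 RPKM in some subset. This r leaves out the level and the size of a change. Wbscr16, for one, averaged 9.68 ± 0.057 RPKM in C-LTMR, 7.87 ± 0.036 RPKM in DP and 7.50 ± 0.22 RPKM in DN. Kcnj12, an inward rectifier potassium channel gene, averaged 36.6 ± 2.50 RPKM in C-LTMR, 8.93 ± 0.134 RPKM in DP and 6.05 ± 1.24 RPKM in DN. For Slc17a6 they were Clock, Slc6a13, Lgi2, AW551984 and 1600012H06Rik (r = 0.9991 to 0.9910). Clock, a circadian transcription factor gene, averaged 4.21 ± 0.127 RPKM in C-LTMR, 3.21 ± 0.0675 RPKM in DP and 3.21 ± 0.153 RPKM in DN. Slc6a13, a GABA transporter gene, averaged 2.27 ± 0.0149, 0.371 ± 0.0840 and 0.296 ± 0.233 RPKM in the same order. The 6 points fall into 3 subsets, so r describes the order of the subsets and the way replicates deviate, over libraries that each share depth and preparation.

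Of the other genes of the SLC17 family, which transport organic anions and phosphate, Slc17a5 was the only one above trace levels. Slc17a5, the lysosomal sialic acid transporter sialin, was at 16.7 and 16.0 RPKM in C-LTMR, 19.5 and 19.2 RPKM in DP, and 14.4 and 16.1 RPKM in DN, and it was called in none of the comparisons. Slc17a9, the vesicular nucleotide transporter, and Slc17a1, Slc17a2, Slc17a3 and Slc17a4 were at or under 0.0356 RPKM in every library and did not pass the filter. Vesicular transporters of other transmitters were also low. The monoamine transporter Slc18a2 was at 2.44 and 2.36 RPKM in C-LTMR, 1.71 and 2.05 RPKM in DP, and 1.75 and 1.76 RPKM in DN, and Slc18a1 at 0.60 and 0.47, 0.54 and 0.34, and 0.21 and 0.19 RPKM in the same order. Of these 2 tested genes 0 were called with limma in C-LTMR over DP, C-LTMR over DN or DP over DN. Of all genes tested, 11.3%, 27.1% and 28.0% were called. In the same order 0, 2 and 0 of the 2 had a limma adjusted p under 0.05 at any fold, beside 29.8%, 59.8% and 61.3% of all genes tested. The acetylcholine transporter Slc18a3 was at most 0.0850 RPKM, and the inhibitory amino acid transporter Slc32a1 at most 0.0093 RPKM.

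Genes that supply glutamate did not pass the call rule in any comparison. Of 8 genes, 0 were called with limma in C-LTMR over DP, C-LTMR over DN or DP over DN, where 11.3%, 27.1% and 28.0% of all genes tested were. At a limma adjusted p under 0.05 and any fold, 0, 3 and 3 of the 8 passed, beside 29.8%, 59.8% and 61.3% of all genes tested. The median log2 fold changes were 0.07, 0.26 and 0.31, against 0.04, -0.06 and -0.16 over all genes tested. Got1, the cytosolic aspartate aminotransferase, was at 178 and 151 RPKM in C-LTMR, 135 and 121 RPKM in DP, and 116 and 88.4 RPKM in DN.

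Among genes that clear glutamate, Glul and Slc1a3 were called lower in both GINIP+ subsets than in DN. Of 5 tested of 8, 0 were called in C-LTMR over DP with limma, where 11.3% of all genes tested were. At a limma adjusted p under 0.05 and any fold 0 passed there, beside 29.8% of all genes tested. In the comparisons with DN, 3 were called lower in C-LTMR and 4 lower in DP, with 0 higher. Of all genes tested, 19.8% and 21.4% were called lower in these comparisons. Slc1a6, a neuronal glutamate transporter, was called in neither, at 5.58 and 4.94 RPKM in C-LTMR, 8.26 and 7.98 RPKM in DP, and 10.8 and 7.08 RPKM in DN. The median log2 fold changes of the DN comparisons were -1.44 and -1.82. Slc38a5 and Slc1a1 reached 0.5 RPKM only in the DN libraries, so in these counts and medians they could only lie lower. Glul, glutamine synthetase, a gene of satellite glia, was at 59.1 and 59.5 RPKM in C-LTMR, 45.1 and 46.3 RPKM in DP, and 129 and 203 RPKM in DN (log2 fold changes -1.44 for C-LTMR over DN and -1.82 for DP over DN, limma adjusted p = 0.000798 and 0.00027). Slc1a3, the glial glutamate transporter GLAST, was at 0.69 and 1.21 RPKM in C-LTMR, 0.19 and 0.53 RPKM in DP, and 4.61 and 14.1 RPKM in DN. Slc38a5, a glutamine transporter, was also called lower in both. Slc1a1, the neuronal glutamate transporter EAAT3, was called lower in DP than in DN (log2 fold change -1.22). That call was lost with a pseudocount of 1 (-0.77) and with quantile normalization (-0.63). For C-LTMR over DN its -0.87 missed the fold criterion, and that difference between comparisons was not tested. Glul, the 1 member of this list in the authors' TMM-normalized table, was called there in both comparisons with DN. Of 10 markers of satellite glia and Schwann cells, 9 were called lower in C-LTMR than in DN and 9 lower in DP than in DN. All genes were called lower at the same 19.8% and 21.4%, and Prx, among the markers, reached 0.5 RPKM only in DN. The part of these cells in the difference was not tested.

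Subunits of the vesicular proton pump, which provides the gradient for glutamate loading, held 1 called gene, Atp6v1g2, a brain-type G subunit. Of 15 tested, it was the 1 called higher in C-LTMR than in DP, where 6.77% of all genes were, and the 1 called lower in DP than in DN, where 21.4% of all genes were. It was at 76.6 and 71.6 RPKM in C-LTMR, 32.5 and 34.5 RPKM in DP, and 101 and 75.8 RPKM in DN (log2 fold changes 1.13 and -1.37, limma adjusted p = 0.00126 and 0.000216). With libraries rescaled to pan-sensory-neuron genes the difference between C-LTMR and DP was 0.89 and not called. In C-LTMR over DN 0 were called with limma, where 27.1% of all genes were. At a limma adjusted p under 0.05 and any fold, 2, 8 and 12 passed in C-LTMR over DP, C-LTMR over DN and DP over DN. Of all genes tested, 29.8%, 59.8% and 61.3% did. The median log2 fold changes over the list were -0.05, 0.29 and 0.34, against 0.04, -0.06 and -0.16 over all genes tested.

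Genes of vesicle release divided between the subsets. Of 22 tested, 4 were higher and 1 lower in C-LTMR than in DP, 6 higher and 3 lower in C-LTMR than in DN, and 4 higher and 5 lower in DP than in DN, beside the 11.3%, 27.1% and 28.0% of all genes called. Sv2a, a synaptic vesicle glycoprotein, was at 35.5 and 45.0 RPKM in C-LTMR, 3.06 and 3.86 RPKM in DP, and 25.1 and 19.4 RPKM in DN (log2 fold change 3.36 for C-LTMR over DP, -2.52 for DP over DN). Syn2, a synapsin, was the member called lower in C-LTMR than in DP, at 10.8 and 10.1 RPKM in C-LTMR, 31.9 and 32.8 RPKM in DP, and 35.3 and 27.9 RPKM in DN. Rims1, an active zone scaffold, was at 4.48 and 4.68 RPKM in C-LTMR, 1.33 and 1.51 RPKM in DP, and 0.52 and 0.23 RPKM in DN, the same order of subsets as Slc17a8. Cplx2, a complexin, was at 19.1 and 26.5 RPKM in C-LTMR, 5.95 and 7.09 RPKM in DP, and 21.1 and 15.0 RPKM in DN. Syt1, the calcium sensor of fast release, was at 151 and 170 RPKM in C-LTMR, 133 and 140 RPKM in DP, and 41.6 and 31.6 RPKM in DN. Syt2, its relative, was called lower in C-LTMR and DP than in DN, where it was at 2.25 and 1.59 RPKM. Because Syt2 reached 0.5 RPKM only in the DN libraries, it could only be called lower.

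**Figure D5:**
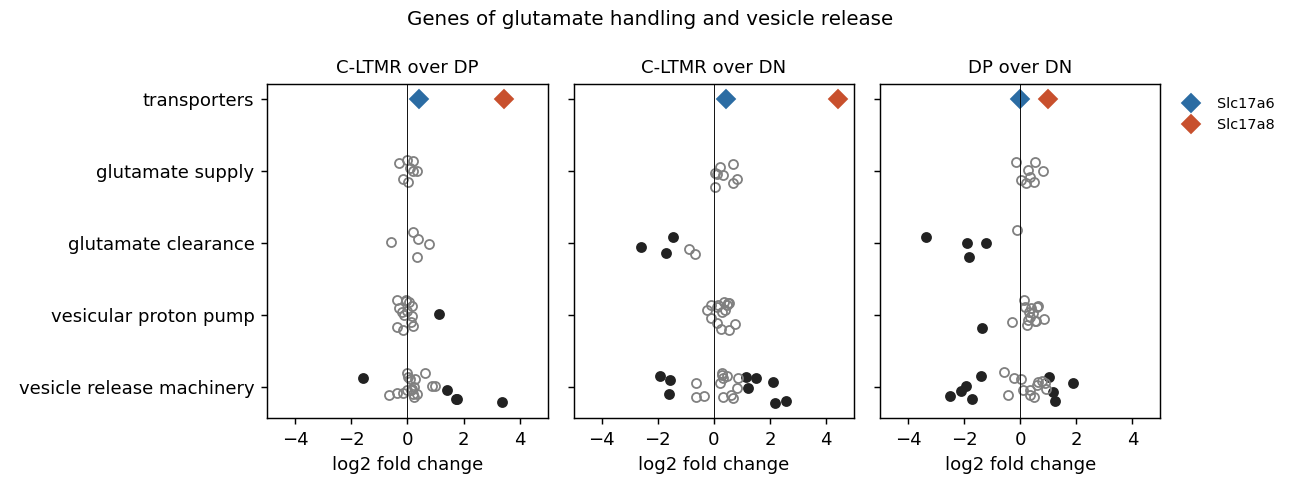
Log2 fold changes of the tested genes of 4 lists in the 3 comparisons (filled circles called, open circles not called, spread vertically at random), with Slc17a6 and Slc17a8 as diamonds. Glutamate supply genes are open circles in all panels, and Slc17a8 lies at 3.44 and 4.43 in the comparisons of C-LTMR. Glutamate clearance genes lie to the left in the comparisons with DN, where Slc38a5 and Slc1a1 had passed the filter only through DN.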

How the data were processed

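The submitters' processing notes list CASAVA 1.8.2 and edgeR 2.6.2, with GRCm38 (mm10) as the mouse build, but no role for either tool. Not given in the sources used here were the aligner, annotation and strand handling. Per the labels' protocols, 50 ng of RNA was amplified before TruSeq library construction. The authors deposited RPKM values of 23029 genes, the main values here, and a TMM-normalized signal of 6620 genes, which lists Slc17a6 and Slc17a8. Genes at 0.5 RPKM or more in at least 2 libraries were fitted on log2(RPKM + 0.5) over all 6 libraries with limma 3.58.1 in R 4.3.3 (3 residual and 3.61 prior degrees of freedom, trend, Benjamini-Hochberg adjustment), and the fit was tested on simulated data. Depth was estimated as the most frequent value that a single read implies, with GENCODE exon lengths; the reads were not recovered and no count model was run. The genes named were the members, list genes called in a comparison or at a list's highest or lowest fold change, genes giving a list's level, and the 5 genes nearest in pattern to each tested member. The members and lists were chosen with earlier results of these data known. Python 3.11.15 with pandas 2.3.3 and matplotlib 3.10.9 served for summaries and plots. Alternatives changed the pseudocount, filter, scaling, table, libraries, trend and replicate block. Some list genes that this rule would name are not reported here.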

Additional observations from a re-analysis of the deposited data

How the results depend on the processing

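Slc17a8 in C-LTMR kept its direction against DP and DN under all 17 alternatives. It kept its call under those with 2 libraries in each subset compared. Without 1 library at a time its log2 fold change ran from 3.36 to 3.52 over DP and from 4.17 to 4.70 over DN. Slc17a8 in DP over DN, not called at 0.99, was called with a pseudocount of 0.1 (1.55), quantile normalization (1.61) and median-ratio scaling (1.06). It was also called after rescaling to pan-sensory-neuron genes (1.05) and in the TMM-normalized table (1.78). Without 1 library at a time this log2 fold change ran from 0.73 to 1.26. Slc17a6 in DP over DN turned sign in the TMM-normalized table (-0.0031), without DP replicate 1 (-0.02) and without DN replicate 1 (-0.047), within -0.047 to 0.058 over the libraries left out. Slc17a6 in C-LTMR was called under none of them, with 0.39 to 0.44 over DP and 0.37 to 0.47 over DN without 1 library at a time. In the TMM-normalized table, which tests fewer genes, 843, 1562 and 1645 genes were called in C-LTMR over DP, C-LTMR over DN and DP over DN, against 1527, 3650 and 3776. Of called genes, 59.7%, 26.8% and 23.4% were higher, against 54.7%, 45.3% and 44.3% with quantile normalization, 46.8%, 20.5% and 24.6% after rescaling to pan-sensory-neuron genes, and 38% and 37.4% in the comparisons with DN of the TMM-normalized table. Rescaling put the median of all genes at -0.148, -0.242 and -0.122 against 0.0426, -0.0584 and -0.155; quantile normalization put it at -0.0154, 0.146 and 0.133. With the replicate block, Slc17a8 kept log2 fold changes of 3.44, 4.43 and 0.99 (limma adjusted p = 0.0001, 1.22e-05 and 0.00493), Slc17a6 was at 0.42, 0.42 and 0.01, and 1543, 3652 and 3784 genes were called. The differences of replicate 1 and 2 correlated between subsets with r = 0.473, 0.319 and 0.12 across genes, and the labels do not say that a number marks a shared animal or day. Among called list genes, calls lost under an alternative were 20 in all, each in the same direction. Slc17a7 had about 13.2 to 62.0 reads a library. Its 4.43-fold gap lay between C-LTMR libraries of 34.2 and 32.3 M reads, and the cause was not tested.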
